A study of Mus musculus with 10 samples.

Results

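Microglia were the cells with at least 3 of 7 microglial transcripts detected, C1qa, C1qb, C1qc, Csf1r, Cx3cr1, Tyrobp and P2ry12, among kept cells with at least 1000 unique molecular identifiers (UMIs, each counting 1 captured transcript) and at most 10% of UMIs from mitochondrial genes. The members were chosen by these detections, so the levels of the 7 genes are described without a test. The rule found 320 microglia among 65779 kept cells (0.486%, exact 95% binomial interval 0.435 to 0.543%), and the remaining 65459 kept cells are called the other cells. The study dissociated whole cortices of mouse embryos on the C57BL/6N-Atm1Brd background at E16.5 (days of embryonic development) with papain and prepared 1 droplet 3′ single-cell library from each of 10 embryos. There were 3 wild-type embryos (WT), 4 heterozygous Gatad2b stop/+ embryos (Het) and 3 homozygous Gatad2b stop/stop embryos (KO), and no embryo received a treatment. The stop allele, Gatad2b tm1a(EUCOMM)Hmgu, carries a germline trapping cassette in an intron and keeps all exons, so it was not restricted to microglia and reads from the 3′ end of the gene can remain in KO cells.

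Microglia are the resident macrophages of the brain parenchyma. They arise from yolk sac progenitors that enter the neural tube early in development, depend on signalling through the receptor Csf1r, and are known in the embryonic cortex for clearing dying cells and for contacts with progenitors and growing axons. Gatad2b encodes a subunit of the nucleosome remodelling and deacetylase (NuRD) complex, which couples histone deacetylation to chromatin remodelling.

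The libraries held 5147 to 8103 kept cells and 8.29e+07 to 1.24e+08 kept UMIs each. The libraries of WT 1 to 3 and Het 4 shared one file-name prefix and those of Het 1 to 3 and KO 1 to 3 shared another. What the prefix stands for is not given in the sources used here, and KO and WT cannot be told apart from it. Within a prefix, KO can be compared with Het 1 to 3, and WT with Het 4 alone. Within a genotype, only Het 4 against Het 1 to 3 compares the prefixes. Each value against WT given with the prefix as a covariate therefore rests on 1 library, Het 4. Of 65282 distinct kept barcodes, 496 occurred in more than 1 library, 10 microglial barcodes were also kept in another library, and 0 of 320 were microglia in both. Xist was at 1265 to 1451 CPM (the UMIs of a gene scaled to a common library total) in the other cells of 7 embryos, all 3 KO embryos among them, and at 0.145 to 1.00 CPM in WT 1, WT 3 and Het 2. The Y-linked gene Ddx3y was at 42.3 CPM in WT 1 and at 39.8 CPM in Het 2 and was listed at 0 in WT 3, so that WT 3 held neither signal. Of the WT embryos only WT 2 held Xist at the higher level, against all 3 KO embryos. The part of sex in the differences between KO and WT was not tested.

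The order of genes by the ratio of their level in microglia to that in the other cells was led by the 3 chains of complement C1q, which tags cells and synapses for clearance, although all 3 belong to the rule and their levels are a description only. In the microglia without candidate doublets, C1qb was at 3857 CPM as the mean of the 10 embryos, and the other cells held 0.239 CPM. Tyrobp, the adaptor through which several activating receptors signal, was at 2395 CPM in microglia and was detected in 98.4% of them. Among the genes outside the rule, Fcer1g, a signalling chain of Fc receptors, was at 2039 CPM and Fcrls, a scavenger receptor-like protein, was at 1471 CPM. Ctss, a lysosomal protease, was at 1462 CPM and Trem2, a lipid-sensing receptor, was at 946 CPM. The remainder of the 20 leading genes were Cx3cr1, Csf1r, P2ry12, Ccl4, Ly86, Aif1, Ccl3, Crybb1, Laptm5, Fcgr3, Lyz2 and Mpeg1.

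The C1q genes lie side by side on chromosome 4 of GRCm38, all on the minus strand, with C1qb at chr4:136880129-136886187, C1qc at chr4:136889804-136893065 and C1qa at chr4:136895917-136898803. The letters GAGGAAGT, bound by the myeloid factor PU.1, were searched on both strands in the 250 bases before each gene's start in RefSeq promoters of GRCm38.p6. They occurred in 2.44% of 32851 promoters, or by gene in 2.79% of 27025 genes. Of the 16 leading genes that had a promoter, 1 (6.25%) held them, C1qc, a rule gene, which is shown because C1q led the microglial genes. The window at chr4:136893077-136893134 is given 5′ to 3′ along the direction of the gene, 195 bases before the start that RefSeq gives, which lies inside the gene interval above, with the motif in capitals as its reverse complement.
C1qc: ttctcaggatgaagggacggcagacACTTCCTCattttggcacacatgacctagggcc
A match describes the letters and does not show binding.

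Markers that the rule did not use described the same cells. Of 18 further microglial markers, 3 or more were detected in 294 of 320 microglia (91.9%, exact 95% interval 88.3 to 94.6%), in 240 of the other cells (0.367%) and in 4 of 1628 erythroid cells (0.246%), which had at least 25% of UMIs from hemoglobin genes and should lack them. The median depth was 4814.5 UMIs in microglia and 9538 UMIs in erythroid cells. All 18 markers had a higher CPM in microglia without candidate doublets than in the other cells, with a median log2 ratio of 8.31. Sall1, the transcription factor that distinguishes microglia from other macrophages, was detected in 32.1% of these microglia. At the edge of the rule, the 45 cells with exactly 3 rule genes had a median of 8947 UMIs and a median 0.0897% of UMIs from the 18 markers, whereas the 75 excluded cells with exactly 2 rule genes had 10941 UMIs and 0.00952%.

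A share of the microglia also carried neuronal transcripts. Candidate doublets were defined as microglia whose share of UMIs from 12 neuronal genes reached 0.409%, which is 50% of the median of the other cells, 0.818%. They made up 68 of 320 microglia (21.3%, exact 95% interval 16.9 to 26.1%). In the WT embryos they were 20.0%, 24.1% and 22.0% of microglia, in the Het embryos 12.5%, 5.88%, 56.5% and 8.70%, and in the KO embryos 13.8%, 0% and 21.4%. Het 3 stood above all other embryos, and 20 of its 26 candidate doublets held at least 0.25% of UMIs from hemoglobin genes, against 1 of the 42 elsewhere. The Het 3 candidates had a median 0.0333% of UMIs from the 18 microglial markers, against 1.11% in the 252 microglia without candidate doublets. No doublet caller was run. Counts of called genes, the share of microglia and the medians of the identity, immediate early, interferon, macrophage, G2/M and neuronal lists are given with and without these cells, and other values for the cells named beside them.

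The number of microglia did not separate the genotypes. In the WT embryos 40, 29 and 41 cells met the rule, which is 0.494%, 0.405% and 0.525% of kept cells. In the Het embryos 32, 34, 46 and 23 cells met it, or 0.548%, 0.553%, 0.820% and 0.291%. In the KO embryos there were 29, 18 and 28 cells, or 0.495%, 0.350% and 0.453%. The Het embryos covered the range of both other groups, and the exact 95% intervals of Het 3 (0.601 to 1.09%) and Het 4 (0.184 to 0.436%) did not meet. The WT mean was 0.475% ± 0.0623 (SD over 3 embryos), the Het mean 0.553% ± 0.216 (SD over 4) and the KO mean 0.433% ± 0.0746 (SD over 3).

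Neither mutant group differed from WT in this share by a two-sided exact permutation test. The difference of Het from WT was 0.0780 percentage points (exact permutation p = 0.6) and -0.0110 without Het 3, that of KO from WT was -0.0421 (p = 0.6 by the same exact test) and that of KO from Het was -0.120 (exact p = 0.457). The smallest p that the design allows was 0.0286 for 3 against 4 embryos and 0.1 for 3 against 3, so KO against WT could not reach 0.05. The study defined microglia by clustering and listed a lower share in KO than in WT, under its limit of 0.05. Adjusted over the 11 comparisons of shares, no p was below 0.733. Without candidate doublets the means were 0.371% ± 0.0554 in WT, 0.405% ± 0.116 in Het and 0.377% ± 0.0425 in KO, and the KO difference from WT turned to 0.00672 percentage points.

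**Figure D1:**
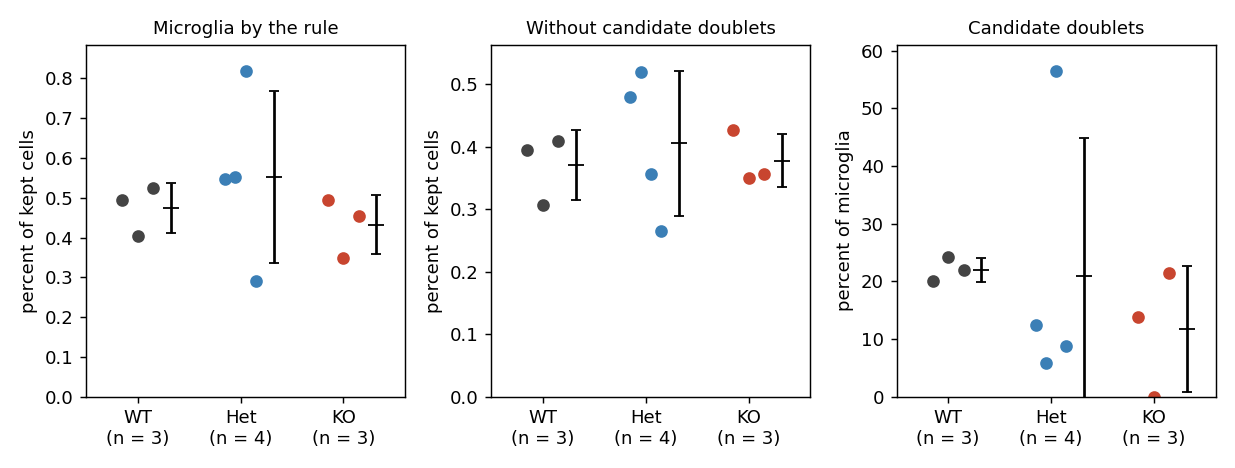
Microglia as a percent of kept cells in each embryo (left), the same without candidate doublets (middle), and candidate doublets as a percent of microglia (right); each point is 1 embryo and the bars show the mean and SD per genotype, cut at 0. Het 3 has the highest left-hand value, 0.820%, and the highest share of candidate doublets, 56.5%, and falls to 0.356% without them.

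Microglia without candidate doublets fell along a wide range of depths, and their transcripts differed along it. A split at 5000 UMIs, chosen after the data were seen, gave 151 shallow cells with a median of 2191 UMIs and 922 genes and 101 deep cells with a median of 16129 UMIs and 3747 genes. The 14 genes of the immediate early and dissociation list, which are induced within minutes by stimuli that include tissue dissociation, made up 0.910% of UMIs in deep microglia and 0.0689% in shallow ones. In the other cells the same genes made up 0.111% above the split and 0.0878% below it. The erythroid cells were left out of the other cells wherever these were split by depth.

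Pooled over embryos, Fos was at 1649 CPM in deep and 60.2 CPM in shallow microglia, and Egr1 was at 704 and 19.1 CPM. Both encode immediate early transcription factors. Fosb, of the same family, was at 478 CPM in deep cells and had no UMI in shallow ones, where 3 UMIs would be 8.21 CPM. Zfp36, which promotes the decay of cytokine mRNAs, was at 696 and 35.6 CPM. The chemokine Ccl4 was at 1116 and 65.6 CPM and Ccl3 at 780 and 101 CPM. The nuclear RNAs Malat1 and Neat1, named after their values were seen, differed as well. Malat1 was at 18109 CPM in deep and 1800 CPM in shallow microglia. The other cells without erythroid cells held 21410 CPM of Malat1 above the split and 53815 CPM below it. Neat1 was at 405 CPM in deep microglia and without a UMI in shallow ones.

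Microglial markers outside the rule differed by smaller ratios across the same split. Of the 18, 17 were higher in deep microglia, with a median ratio of deep to shallow of 1.40, from 0.486 for Aif1, a calcium-binding protein, to 3.75 for Itgam, an integrin chain of the complement receptor, which was at 195 and 52.0 CPM. Ptprc, the pan-leukocyte phosphatase, was at 276 and 84.8 CPM. Of the immediate early list, 11 of 14 genes had a UMI in shallow cells, and their median ratio was 15.0. The rule genes held between 0.916 for Tyrobp and 3.27 for Cx3cr1, but a shallow cell was a member only through UMIs of these genes, so their shallow levels were held up by the rule. Neuronal transcripts moved the other way, with a median 0.103% of UMIs in shallow and 0.0253% in deep microglia. Gap43, a protein of growing axons, was at 109 CPM in shallow and 26.9 CPM in deep cells, and Stmn2, a microtubule regulator of neurons, at 298 and 115 CPM. The part of neuronal RNA in the depth difference was not tested. The sums per embryo were ordered alike: the list share, Fos, Neat1 and Malat1 were higher in deep than in shallow microglia in 10 of 10 embryos. The share of mitochondrial UMIs was 4.75% in deep and 3.13% in shallow microglia, against 4.26% and 4.89% in the other cells without erythroid cells.

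**Figure D2:**
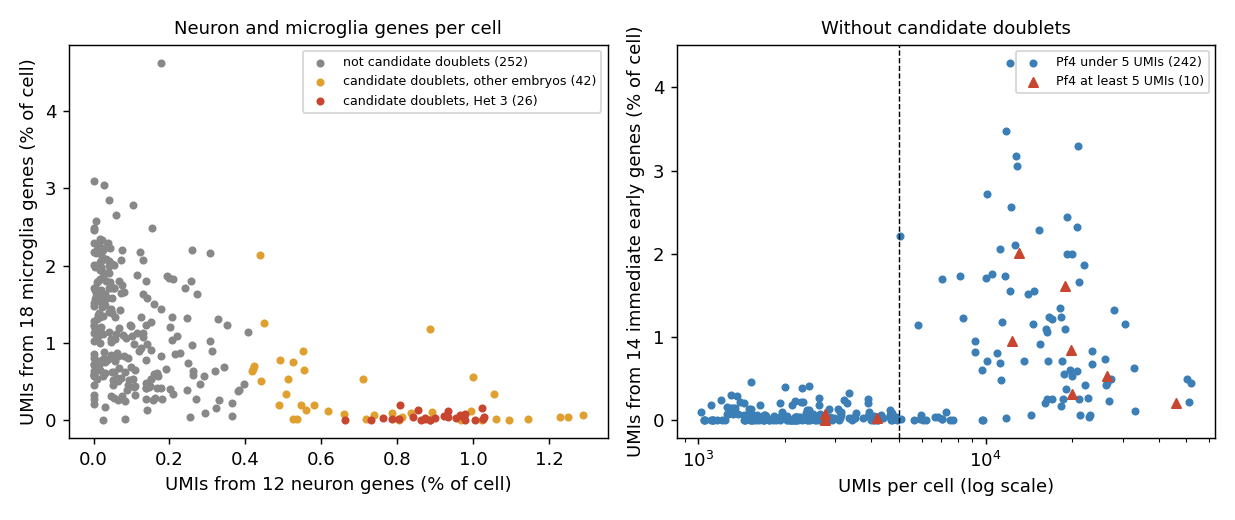
Each point is 1 microglial cell. The left panel plots the percent of UMIs from the 18 microglial markers against that from the 12 neuronal genes for all 320 cells, with the 26 candidate doublets of Het 3 and the 42 of the other embryos in their own colours at or above 0.409%; the right panel plots, for the 252 cells without candidate doublets, the percent of UMIs from the 14 immediate early genes against UMIs per cell on a log axis, with a dashed line at 5000 UMIs and triangles for the 10 cells with at least 5 Pf4 UMIs. The higher immediate early shares lie to the right of the line.

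By genotype, deep cells made up 37.5%, 45.5% and 25% of these microglia in the WT embryos, 42.9%, 31.3%, 45.0% and 42.9% in Het, and 56.0%, 44.4% and 40.9% in KO. The means were 36.0% ± 10.3, 40.5% ± 6.24 and 47.1% ± 7.89, and the groups overlapped (exact permutation p = 0.514 for Het and 0.3 for KO against WT). Within deep microglia the immediate early list took 0.933%, 0.531% and 0.708% of UMIs in WT, 1.21%, 0.949%, 1.42% and 0.513% in Het, and 1.06%, 0.772% and 1.07% in KO. WT 1 lay above KO 2 and Het 4 lay below all others, and the exact permutation p was 0.286 for Het and 0.2 for KO against WT. Het 4 shares its file-name prefix with the WT embryos.

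**Figure D3:**
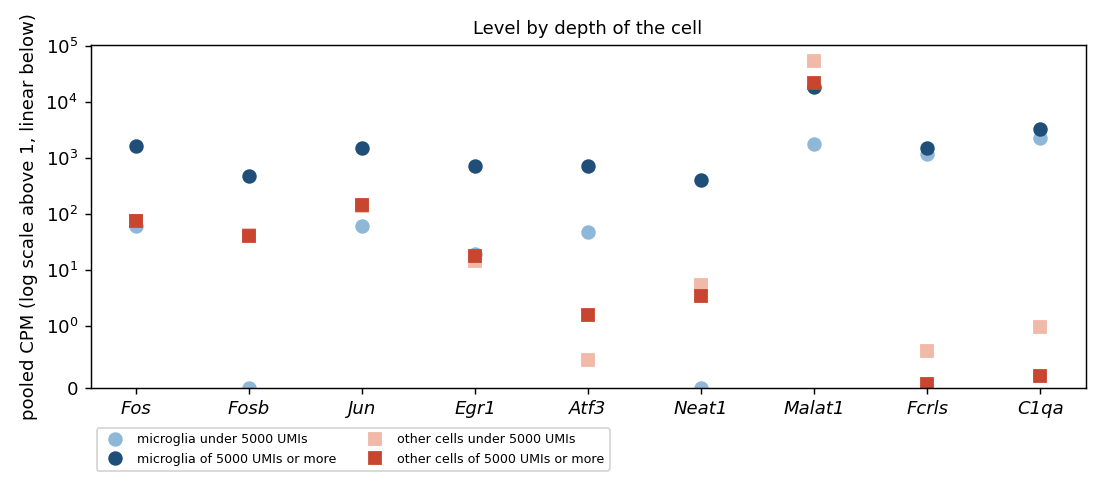
Pooled CPM (log axis above 1, linear below) of selected genes in microglia without candidate doublets and in the other cells without erythroid cells. Both classes were split at 5000 UMIs. Of the genes shown, Fos, Jun, Egr1, Atf3 and Malat1 lie further apart between deep and shallow microglia than Fcrls and C1qa do, and Fosb and Neat1 of the shallow cells are at 0.

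A small set of cells within the rule carried the transcripts of border-associated macrophages, the perivascular and meningeal relatives of microglia. Cells with at least 5 UMIs of Pf4, a threshold chosen after the values were seen, numbered 10 and held 1018 of the 1051 Pf4 UMIs. They came from WT 1 to 3 with 2, 1 and 3 cells, from Het 1, 2 and 4 with 1 each, and from KO 1 with 1. Of these cells, 7 were deep, and they were set beside the 94 other deep microglia without a test, since both classes were drawn from the same values.

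The Pf4-positive deep cells held 1961 CPM of Lyve1, a hyaluronan receptor, and the other deep microglia had no UMI of it, where 3 UMIs would be 1.93 CPM. Mrc1, the mannose receptor, was at 2874 CPM against 194 CPM, and F13a1, a coagulation factor subunit of macrophages, at 2676 against 30.3 CPM. Cd163, the scavenger receptor for haemoglobin, was at 102 CPM against no UMI. In the opposite direction, Sall1 had no UMI in 7 Pf4-positive cells, where 3 UMIs would be 19.2 CPM, and was detected in 61 of 94 others. Siglech was at 19.2 against 365 CPM and the purinergic receptor P2ry12 at 89.4 against 809 CPM. Genes of macrophages in general varied between the classes. Fcer1g was at 2485 against 2050 CPM and Spi1 at 402 against 360 CPM, whereas Trem2 was at 473 against 989 CPM, Ctsd at 1431 against 3567 CPM and Apoe at 20843 against 11823 CPM. In the Pf4-positive cells Lyve1, Mrc1, F13a1, Sall1, Siglech and P2ry12 went against the label microglia. The rule gene C1qa was at 3226 against 3207 CPM and Tyrobp at 2670 against 2353 CPM. The other 94 deep cells carried Sall1, Siglech and P2ry12 at the levels given.

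**Figure D4:**
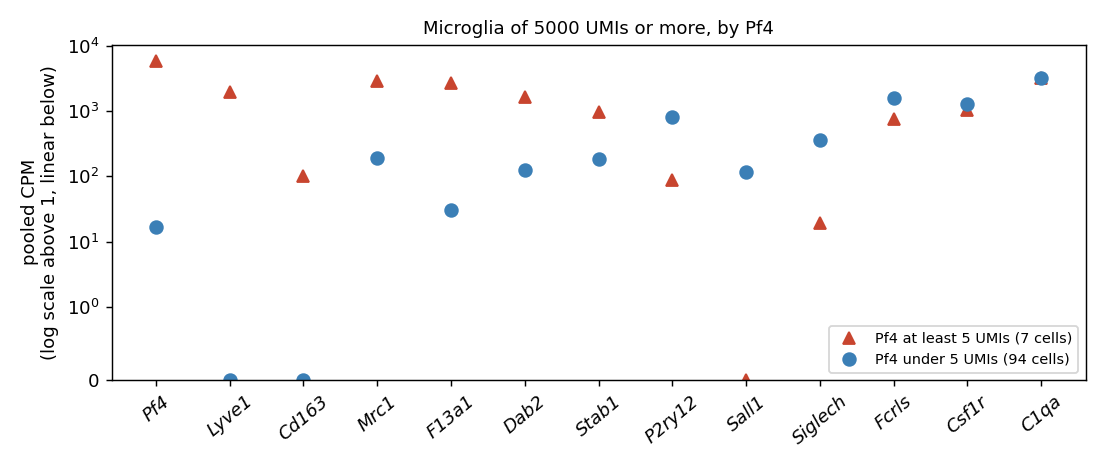
Pooled CPM (log axis above 1, linear below) of macrophage and microglial genes in 7 deep cells with at least 5 Pf4 UMIs and in 94 other deep microglia. Lyve1, Mrc1 and F13a1 are higher in the first class, and Sall1, Siglech and P2ry12 in the second.

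Over all microglia, at least 2 of 10 border macrophage markers were detected in 91 of 320 cells (28.4%), against 0.301% of the other cells and 0.246% of erythroid cells. Detection followed depth, with 67 of 101 deep and 16 of 151 shallow microglia among those without candidate doublets. Of these 83 cells, 81.9% held Stab1, 74.7% Dab2 and 73.5% Mrc1, but only 31.3% held Pf4 and 9.64% Lyve1. The microglial genes Siglech and Sall1 were detected in 73.5% and 51.8% of them. The count therefore does not single out border-associated macrophages. The share was 28.3% ± 8.42 over the WT embryos, 26.8% ± 8.89 over Het and 32.1% ± 3.13 over KO (mean ± SD, exact permutation p of 0.83 for Het and 0.5 for KO against WT). Cd3e and Cd79a of lymphocytes and Cpa3 of mast cells had no UMI in the 252 microglia without candidate doublets, cells that the rule had selected for microglial transcripts. Of the 8 monocyte and neutrophil genes, Lyz2 was detected in 52.0% of these cells, while Ccr2 and Plac8, which mark monocytes, were detected in 2.38% and 3.17%.

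Transcripts of mitosis were found in a share of microglia. At least 2 of 16 G2/M genes, which act in mitosis, were detected in 74 of 252 microglia without candidate doublets (29.4%, exact 95% interval 23.8 to 35.4%), in 13.7% of the other cells, of median depth 13898 UMIs, and in 28.0% of erythroid cells, a share inside the interval of the microglia. The median depth was 7622 UMIs in the microglia with these genes and 2840.5 UMIs in the rest. Detection followed depth here as well, with 42 of 101 deep and 32 of 151 shallow microglia. The erythroid cells had a median of 9538 UMIs, so their share and that of all 252 microglia were taken at unlike depths. Top2a, a topoisomerase, was detected in 20.2% and Mki67, a proliferation marker, in 15.5% of the 252 cells. Candidate doublets had been defined by neuronal genes only. Among genes of radial glia, which are neural progenitors, Fabp7 and Sox2 were at 177 and 63.8 CPM in the 74 cells. In the remaining 178 cells they were at 42.1 and 23.2 CPM. Hes1 went the other way, at 7.70 CPM against 10.3 CPM. The part of RNA from dividing progenitors in the G2/M share was not tested. Over all microglia the share was 28.3% ± 8.48 over the WT embryos, 35.5% ± 8.51 over Het and 24.7% ± 14.3 over KO (mean ± SD, exact permutation p of 0.343 for Het and 1 for KO against WT). The KO embryos spread more widely than the difference between the groups.

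Functional groups outside the rule are described as the mean CPM over embryos without candidate doublets. Apoe, the lipid carrier of the phagocytosis list, was at 12219 CPM and was detected in 93.7% of cells, and the lysosomal proteases Ctsd and Ctsb were at 3244 and 2780 CPM. All 20 genes of that list were higher than in the other cells, and so were all 26 receptor and signalling genes. Among the receptors, Fcgr3, which binds immunoglobulin, was at 525 CPM and C3ar1, a complement receptor, at 215 CPM. Among the transcription factors, 15 of 16 were higher than in the other cells. Maf was at 756 CPM, Spi1 at 382 CPM and Irf8, a partner of PU.1, at 234 CPM, while Mef2c at 762 CPM was below the 852 CPM of the other cells, which include neurons that use it.

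Of 17 cytokine and chemokine genes, 16 had UMIs, with Ccl4 at 954 and Ccl3 at 669 CPM, and the anti-inflammatory cytokine Il10 had none. Of 13 measured genes that mark microglia along developing axon tracts, 11 were higher than in the other cells, and the median gene was detected in 28.2% of microglia. Cd63, a lysosomal membrane protein, was detected in 69.8%, Igf1, a growth factor, in 30.6% and Spp1, a secreted matrix protein, in 11.1%, while Itgax and Gpnmb were in 3.57% and 3.17%. The interferon-response list had a median detection of 7.34% of cells, with Bst2, a viral restriction factor, detected in 51.2%. All 12 of its genes had a higher CPM than in the other cells. For scale, Stmn2 of neurons was detected in 53.2% of the same microglia and Hbb-bs of erythroid cells in 39.7%, so detection alone does not show expression. Levels here are UMIs scaled to a common library total, and genes are compared between cell classes and not with each other.

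Gatad2b, at chr3:90293178-90363407 on the plus strand, served as the check of the labels. In the other cells it was at 143, 134 and 137 CPM in WT, at 96.8, 92.2, 92.2 and 98.1 CPM in Het and at 52.3, 54.2 and 58.7 CPM in KO. The 3 groups did not overlap, and the log2 fold change of KO against WT was -1.33 (SE 0.05). In microglia without candidate doublets Gatad2b was at 142, 46.4 and 52.4 CPM in WT, at 33.6, 38.1, 57.4 and 65.7 CPM in Het and at 12.5, 0 and 51.6 CPM in KO. The groups overlapped, and the log2 fold change of KO against WT was -1.88 (SE 0.70) with an edgeR adjusted p of 0.466. A Gatad2b UMI was found in 19.8% of these microglia and in 6.51% of erythroid cells. Of the 15 NuRD genes 12 were tested in microglia without candidate doublets, with a median log2 fold change of -0.28 for KO against WT, 4 positive values and 8 negative ones. Chd4, the remodelling ATPase, was at 283 CPM as the mean over embryos, on the scale of the functional groups above.

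No gene was called between genotypes in microglia. UMIs of microglia were summed per embryo and tested with edgeR's quasi-likelihood test, with calls made at adjusted p under 0.05 together with a log2 fold change beyond 0.25 in either direction. Of 5740 genes tested, 0 (0%) were called in Het against WT, in KO against WT and in KO against Het, and 167, 197 and 202 genes (2.91%, 3.43% and 3.52%) had an unadjusted p below 0.05. DESeq2 also called 0 in each. Without candidate doublets, edgeR called 0 of 3704 genes (0%) in each comparison, with 210, 313 and 137 (5.67%, 8.45% and 3.7%) at an unadjusted p below 0.05, and DESeq2 called 1, 5 and 0. In the other cells, with far more UMIs, 3.25%, 24.9% and 5.72% of 17504 genes were called. The embryos of a pair of groups did not overlap in 6.13% of the 3704 genes for Het against WT, in 14.2% for KO against WT and in 4.78% for KO against Het, which is the background for each statement on overlap that follows.

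The difference between the genotype effect in microglia and that in the other cells was tested directly, and 0 of 5740 genes (0%) were called for Het or KO against WT, with 126 and 153 (2.2% and 2.67%) at an unadjusted p below 0.05. A count of 0 does not show that no gene differed.

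Genes of microglial identity had mostly higher values in KO than in WT embryos, with 0 called. Of the 18 markers outside the rule, 17 had a positive log2 fold change without candidate doublets, with a median of 0.53, against 1881 of 3704 genes tested and a median of 0.01. The median stayed positive in 14 of 14 settings of this fit, between 0.33 and 0.64. These settings include the file-name prefix as a covariate, with which 15 of the 18 values were positive and the median was 0.44. Neuronal genes took 0.0189% to 0.0627% of the UMIs of these cells in KO and 0.0555% to 0.147% in WT, and their part in the median was not tested. Deep cells, in which 17 of the 18 markers were higher, were 47.1% of these cells in KO and 36.0% in WT, and within deep cells the KO median was 0.52 with 17 of 18 values positive. Under a stricter selection of cells with at least 5 of 7 rule genes, candidate doublets included, 44 of 4370 genes (1.01%) were called higher in KO than in WT, among them 3 of the 18 markers, Ctss, Siglech and P2ry13 (edgeR adjusted p of 0.0415, 0.0273 and 0.0432). Het against WT gave 16 positive values of 18 and a median of 0.26. With candidate doublets included, the KO median was 0.64 with 17 of 18 values positive, while Het against WT had 8 positive values and a median of -0.0043 and was positive in 13 of the 28 settings of that fit.

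Sall1 was at 73.6, 113 and 83.8 CPM in WT and at 112, 76.3, 122 and 59.7 CPM in Het. In KO it was at 134, 160 and 206 CPM. These CPM are relative to the UMIs of the genes tested and are scaled by edgeR's TMM factors. The CPM per embryo that follow are on this scale unless another is named, and so were those of Gatad2b in microglia. The KO values of Sall1 lay above both other groups, with a log2 fold change against WT of 0.87 (SE 0.32, edgeR adjusted p = 0.458). With the prefix as a covariate the value was 0.10 (SE 0.60). Sall1 was not called in KO against WT with at least 5 of 7 rule genes, but was called with at least 0.1% of UMIs from the 18 markers, a selection that used Sall1 itself (edgeR adjusted p = 0.0319). Tmem119, a microglial surface protein, was at 157, 15.5 and 121 CPM in WT and at 184, 216 and 213 CPM in KO, and the Het embryos at 162 to 320 CPM lay above WT as well. P2ry13, a purinergic receptor, was at 103, 98.0 and 78.6 CPM in WT and at 146, 184 and 213 CPM in KO (log2 fold change 0.94, SE 0.29, edgeR adjusted p = 0.374). P2ry12 of the rule was at 598, 382 and 445 CPM in WT, at 1520, 606, 898 and 752 CPM in Het and at 814, 873 and 1264 CPM in KO, a description without a test. The only marker of the 18 with a negative value was Ptprc, the pan-leukocyte phosphatase, at -0.18.

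The direction of the immediate early genes turned with the file-name prefix. Atf3, a stress-induced transcription factor, was at 378, 242 and 493 CPM in WT, at 678, 620, 1041 and 513 CPM in Het and at 1110, 785 and 948 CPM in KO. WT lay below every embryo of both other groups, and the log2 fold change of KO was 1.36 (SE 0.29, edgeR adjusted p = 0.254, and 0.0381 by DESeq2). Het 4, of the WT prefix, had the lowest Het value. With the prefix as a covariate the value was 0.76 (SE 0.47), and with at least 5 of 7 rule genes Atf3 was called at 1.88 (SE 0.28, edgeR adjusted p = 0.00635). Of the 13 genes tested of this list, 11 had a positive value in KO against WT with a median of 0.44, and with the prefix as a covariate 1 did, with a median of -0.57. With candidate doublets included 12 of 13 were positive, with a median of 0.43. In the other cells 10 of 14 were called higher in KO, where 12.2% of all genes were, and 2 of 14 with the prefix as a covariate, where 4.42% of all genes were.

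Ccl4, which attracts immune cells, was at 1216, 454 and 451 CPM in WT, at 1043, 577, 603 and 1063 CPM in Het and at 1386, 2299 and 2063 CPM in KO. KO lay above both other groups, with a log2 fold change against WT of 1.43 (SE 0.36, edgeR adjusted p = 0.303). Csf1, a ligand of Csf1r, was at 123, 41.3 and 68.1 CPM in WT, at 421, 243, 287 and 161 CPM in Het and at 421.6, 104 and 239 CPM in KO (log2 fold change of Het against WT 1.83, SE 0.47, edgeR adjusted p = 0.552). KO 2 lay below WT 1. The 13 cytokine and chemokine genes tested were otherwise split, 7 positive and 6 negative in KO against WT, with a median of 0.04.

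Interferon-response genes had lower values in the Het than in the WT embryos, with 0 called. Of the 12 genes of the list 4 could be tested, all with negative values in Het against WT and a median of -1.55. Over the 14 settings of this fit the median ranged from -2.45 to -0.77. With the prefix as a covariate 2 were positive and 2 negative, with a median of -2.45. With candidate doublets included all 4 were negative, with a median of -1.50. The 12 genes together took 0.248%, 0.0648% and 0.0790% of UMIs in WT, 0.0512%, 0.0416%, 0.0294% and 0.0655% in Het and 0.0727%, 0.0684% and 0.0595% in KO, so that Het 4 lay above WT 2. Ifitm3, an antiviral membrane protein detected in 25 of the 252 cells, was at 701, 165 and 99.6 CPM in WT, at 5.61, 85.8, 0 and 5.97 CPM in Het and at 230, 112 and 329 CPM in KO (Het against WT -3.51, SE 0.81, edgeR adjusted p = 0.429). Het lay below both other groups. Ccl9, a chemokine of myeloid cells, had the same order, with 314, 170 and 246 CPM in WT, 61.7, 95.4, 28.7 and 83.6 CPM in Het and 192, 168 and 316 CPM in KO (Het against WT -1.81, SE 0.35, edgeR adjusted p = 0.342, and 0.0273 by DESeq2). Monocyte genes had their lowest group mean in Het, as Ifitm3 and Ccl9 did. The 8 monocyte and neutrophil genes, in microglia without candidate doublets, took 0.253%, 0.0429% and 0.129% of UMIs in the WT embryos and 0.463%, 0.1003% and 0.134% in the KO embryos, and the Het embryos ranged from 0.0266% to 0.0602%. Plac8 was at 569, 0 and 0 CPM in WT, at 0, 4.77, 0 and 0 CPM in Het and at 238, 0 and 148 CPM in KO, and Lyz2, a lysozyme, ranged from 300 to 680 CPM over the Het embryos, against means of 1293 CPM in WT and 2135 CPM in KO. S100a9 had no UMI in these cells, S100a8 and Ly6c2 were each found in 2 cells, 1 cell of KO 1 holding 255 of the 258 S100a8 UMIs, and Ccr2 in 6, and the part of monocyte RNA in the interferon and Ccl9 values was not tested.

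Border macrophage and mitotic genes had mostly lower values in KO than in WT, again with 0 called. All 7 macrophage genes tested had negative values against WT with a median of -0.64, which ranged from -1.73 to -0.12 over the 14 settings of this fit and was positive in 3 of the 28 settings of the fit of all microglia, where it reached 0.39. Of the 14 G2/M genes 12 had negative values, with a median of -0.74, which ranged from -2.04 to -0.30 over the 14 settings. With candidate doublets included the medians were -0.44 and -0.33, with 7 of 7 and 10 of 14 values negative. Pf4 was at 740, 175 and 1735 CPM in WT and at 710, 32 and 0 CPM in KO, and the 10 cells described above held 1018 of the 1051 Pf4 UMIs. Mki67 was at 348, 186 and 225 CPM in WT and at 138, 224 and 0 CPM in KO, so the groups overlapped. In the other cells 13 of 16 G2/M genes were called higher in KO, where 12.2% of all genes were. The difference between the cell classes was negative for 14 of 14 G2/M genes tested, with a median of -1.25 without candidate doublets, and 0 of these differences were called. Over 28 settings of the fit of all microglia the KO median of the G2/M list ranged from -1.34 to 1.42 and was positive in 4.

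Rps29 and Rpl38, which encode ribosomal proteins, separated the libraries by file-name prefix. Rps29 was at 9263, 9061 and 9370 CPM in WT and at 7201, 6553 and 6241 CPM in KO. Het 1 to 3 were at 7262, 6823 and 7589 CPM, and Het 4, of the WT prefix, was at 8894 CPM, between Het 3 and the WT embryos. The log2 fold change of KO against WT was -0.47 (SE 0.10, edgeR adjusted p = 0.254) and was -0.17 with the prefix as a covariate. Rpl38 was at 2962, 2888 and 2819 CPM in WT, at 1957, 2341 and 1903 CPM in Het 1 to 3, at 2698 CPM in Het 4 and at 2175, 1995 and 2024 CPM in KO. The ATP synthase subunit Atp5k gave -0.93 (SE 0.26) in KO against WT, with Het 4 at 292 CPM inside the 187 to 305 CPM of Het 1 to 3, and the pseudogene Gm10076 gave -0.84 (SE 0.20), whose reads may be shared with its parent gene.

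Rps29 was not called in microglia. In the other cells it was called lower in KO, with -0.62, but not with the prefix as a covariate (-0.24). The study chose these genes on the same embryos. Of the 22 genes of its table that were tested in microglia, 11 had positive and 11 negative values in KO against WT, with a median of -0.08. Of 3704 genes, the KO and WT embryos did not overlap in 525 (14.2%), and in 83 of the 525 all 6 libraries of the second prefix lay on one side of all 4 of the first.

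**Figure D5:**
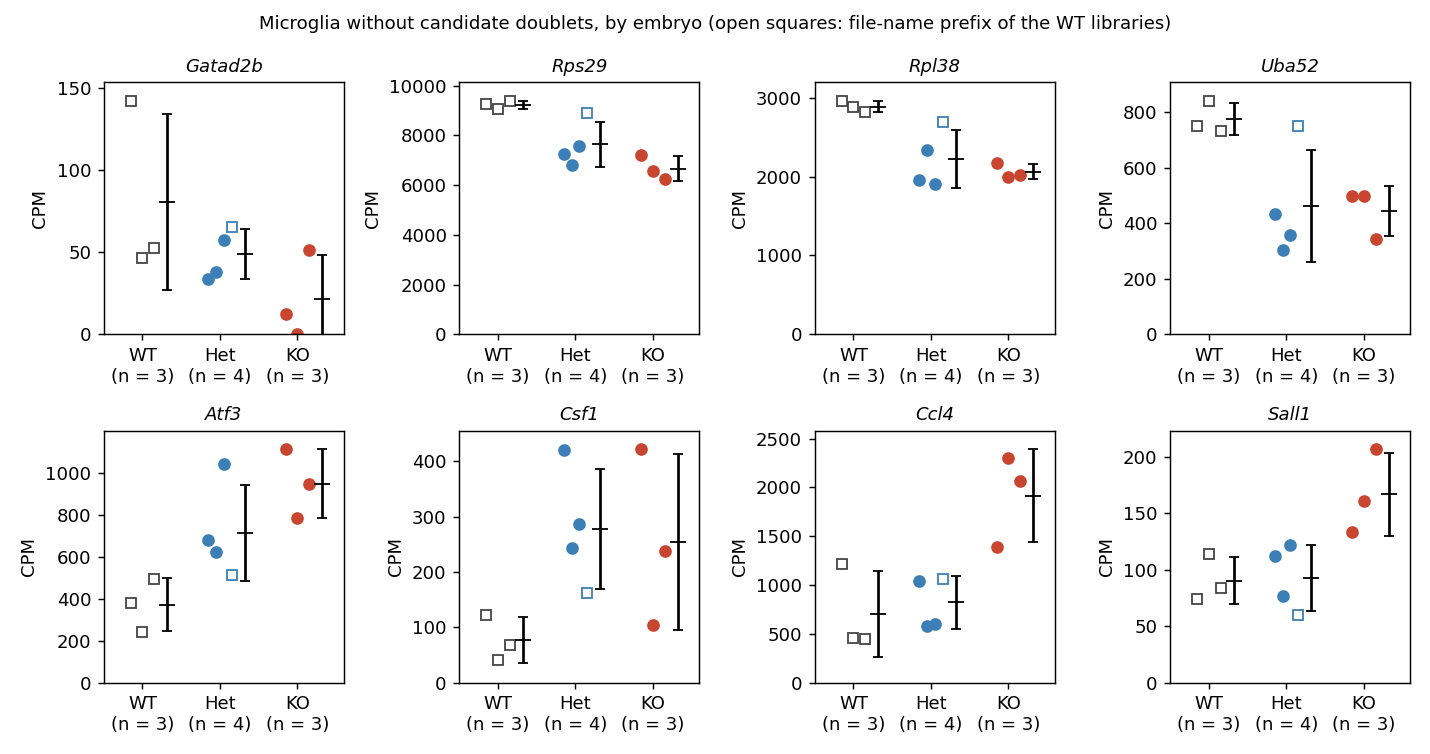
CPM scaled by TMM factors of selected genes in microglia without candidate doublets, with 1 point per embryo and the mean and SD per genotype, cut at 0; open squares are libraries of the WT file-name prefix, Het 4 among them. Rps29 in Het 4 is 8894 CPM, above Het 1 to 3, and the KO values of Sall1 lie above the WT values.

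Neuronal transcripts in microglia had their lowest values in KO 1 and KO 2. Mapt, a microtubule-binding protein of axons, was at 123, 67.0 and 246 CPM in WT and at 8.35, 8.01 and 38.7 CPM in KO without candidate doublets, with a log2 fold change of -2.99 (SE 0.63, edgeR adjusted p = 0.254). Tubb3, a neuronal tubulin, was at 181, 129 and 383 CPM in WT and at 25, 48.1 and 83.8 CPM in KO (-2.20, SE 0.51). DESeq2 called both genes on these cells (adjusted p of 0.0464 and 0.0472), and edgeR did with the replicate number as a block (0.0494 for each). The cells had been selected by the neuronal list, Tubb3 included, so the levels of that list were bounded before the test. The selection removed 20.0%, 24.1% and 22.0% of microglia in WT and 13.8%, 0% and 21.4% in KO. The study had chosen Mapt on the same embryos. All 7 neuronal genes tested had negative values with a median of -1.22, and with candidate doublets included 8 of 10 did, with a median of -0.44. In these cells the 12 neuronal genes took 0.0911%, 0.0555% and 0.147% of UMIs in WT, 0.0389% to 0.0825% in Het and 0.0189%, 0.0267% and 0.0627% in KO, so that KO 3 lay above WT 2 and the groups overlapped.

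Genes were called under other selections of microglia, which also put the candidate doublets back. With at least 5 of 7 rule genes, 151 of 4370 genes (3.46%) were called in KO against WT, 107 of them (2.45%) lower, and 116 (2.65%) in KO against Het, 98 of them (2.24%) lower. Of the 107 genes, 104 had a higher level in the other cells than in microglia, as did all 98, against 54.4% of all genes tested. Of the neuronal list 4 of 9 genes were called lower in KO than in WT, Tubb3, Map2, Dcx and Stmn2. The 44 called higher in KO than in WT held Atf3, Fosb, Csf1, Mertk, Lgmn and the chemokines Ccl2, Ccl3, Ccl4 and Ccl12, with Ccl4 at 1.79 (SE 0.37, edgeR adjusted p = 0.0230) and Csf1 at 1.95 (SE 0.47, edgeR adjusted p = 0.0404). In these cells the neuronal genes took 0.234%, 0.342% and 0.289% of UMIs in WT, 0.281%, 0.102%, 0.500% and 0.232% in Het, and 0.0635%, 0.0242% and 0.0340% in KO (at least 5 of 7). A selection by at least 0.1% of UMIs from the 18 markers called 152 genes (3.57%) in KO against WT, of which 111 were shared with the 151, and the part of neuronal RNA in either count was not tested. With candidate doublets left out of the cells with at least 3 rule genes, 0 genes were called by edgeR.

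Signals that other cells send to microglia were tested in the other cells, which hold the neurons and progenitors. Of 12 such genes, 1 was called higher and 2 lower in KO against WT, where 12.2% of all genes were called higher and 12.7% lower. Cd200, a neuronal surface ligand that restrains microglia, was at 127, 143 and 138 CPM in WT, at 112, 127, 122 and 118 CPM in Het and at 85.7, 78.3 and 85.2 CPM in KO. All KO values lay below the other groups, and Cd200 fell by 0.71 on the log2 scale (SE 0.06). With the prefix as a covariate Cd200 fell by 0.74, a value whose separation of prefix and genotype rests on the only Het library of the WT prefix. Cd200 was also lower in KO than in Het (-0.53), a value from all Het embryos, the library of the WT prefix included. Het 1 to 3, which share 1 prefix with KO, were at 112, 127 and 122 CPM, above all KO values.

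Gas6, a ligand of the phagocytic receptors Mertk and Axl, was at 8.24, 6.89 and 7.50 CPM in WT and at 5.32, 4.66 and 5.63 CPM in KO, and fell by 0.53 on the log2 scale (edgeR adjusted p = 0.005, and 0.110 with the prefix). Csf1 in the other cells was at 2.48, 2.46 and 1.99 CPM in WT and at 3.25, 2.83 and 3.75 CPM in KO (log2 fold change 0.51, edgeR adjusted p = 0.019). Its call was lost with the prefix as a covariate (adjusted p = 0.357), without WT 3 (0.0775) and without KO 3 (0.0850). Il34, Tgfb1, Tgfb2, Cx3cl1, Cxcl12, Cd47, Pros1, Ccl2 and C3 were not called.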

How the data were processed

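Single-cell RNA-seq was measured in 10 cortices, 1 library per embryo. The authors deposited whole-number UMI counts per gene and barcode, aligned to mm10; the submitters' processing notes name Cell Ranger 6.0.2, while the study's methods name another version. Every library held 31053 genes. The study's limits (1000 UMIs or more, mitochondrial share no higher than 10%) left 65779 of 80071 barcodes. Gene lists and the members were chosen with earlier results of these data known. Any gene of a fixed list could be named, with called genes at each extreme and the 20 genes with the highest ratio of CPM in microglia to that in the other cells (pseudocount 1 CPM, detected in at least 10% of microglia); other names are said to be chosen after their values were seen.

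UMIs were summed per embryo and tested in edgeR 4.0.16 (filterByExpr, TMM, quasi-likelihood F-test, all 10 embryos in 1 fit, Benjamini-Hochberg over all genes), with DESeq2 1.42.0 as an alternative, in R 4.3.3. The study used a test over cells, which are not replicates. Sex, hemoglobin and rDNA genes, 18 in all, were left out of the tests as in the study. Where the labels say no more than the embryo, p-values measure the spread between these embryos. Shares were compared by two-sided exact permutation tests over embryos in scipy 1.17.1, and their intervals are exact Clopper-Pearson intervals that cover counting error only. No doublet caller was run; candidate doublets were defined by neuronal UMIs. The gene tests were tested on simulated data, with 100 genes changed by 1 and 100 by 2 on the log2 scale in either direction. For KO against WT, 11% and 59% of these were called in microglia, against 82% and 98% in the other cells. For Het against WT in microglia the shares were 11% and 79%. For the difference between cell classes in KO against WT they were 7% and 69%. Alternatives varied the rule, depth, mitochondrial limit, doublets, filter, scaling, test, prefix, replicate number and each embryo; those at 0.1% of marker UMIs and at 5000 UMIs were chosen after seeing the data, as were the comparisons of deep shares and of immediate early UMIs. Coordinates are of GRCm38 (GENCODE vM21) and promoter sequence is from RefSeq GRCm38.p6. The values of 1 marker gene are not reported here.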

Additional observations from a re-analysis of the deposited data

Results flagged for a closer look

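Among 45 values tested in the 4 Het embryos, 4 had 1 embryo far from the rest by Dixon's criterion, which chance alone passes in about 1 in 20 groups. Candidate doublets made up 56.5% of the microglia of Het 3, against 5.88% to 12.5% in the other Het embryos. The neuronal gene Tubb3 was at 1487 CPM in all microglia of Het 3, candidate doublets included. Erythroid cells made up 1.19% of the kept cells of Het 4. Deep cells were 31.3% of the microglia without candidate doublets in Het 2, the lowest of the Het embryos, at 42.9% to 45.0%.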

How the results depend on the processing

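No called share existed to be lost. The shares of microglia changed sign under several settings, and the cause was not tested. For Het against WT the difference was -0.0150 percentage points with every cell thinned to 1000 UMIs, -0.0291 with the selection by 0.1% of marker UMIs and -0.184 within the libraries of 1 prefix, where Het is 1 embryo, Het 4, and leaving out 1 embryo gave -0.0110 (without Het 3) to 0.165. For KO against WT it was 0.00774 with at least 2 rule genes, 0.0335 with at least 2000 UMIs, 0.0567 with at most 5% mitochondrial UMIs and 0.00672 without candidate doublets. The share with macrophage markers for Het against WT was 2.23 with at least 4 rule genes, 0.349 with at most 5% mitochondrial UMIs, 0.101 without candidate doublets, 6.25 with at least 1 marker, and -5.00 to 3.39 with 1 embryo left out. For KO against WT it was -4.04 with at least 2000 UMIs, -2.75 after thinning and -1.02 with at least 3 markers. The share with G2/M genes for Het against WT was -0.231 after thinning and -0.429 with at least 3 markers. For KO against WT it was 6.58 with at least 1 marker and -10.6 to 3.65 with 1 embryo left out. The share of deep microglia for Het against WT was -0.986 to 9.24 with 1 embryo left out.

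Counts of called genes moved as follows, in the order Het against WT, KO against WT and KO against Het. Without the filter on low counts they were 52, 55 and 70 in microglia. At least 5 rule genes gave 151 and 116 in the last pair, and the selection by 0.1% of marker UMIs gave 152 and 1 (Dcx). Microglia under 5000 UMIs gave 1 and 7 in the first pair, Malat1 lower in both (-1.33 and -1.53). There Malat1 (CPM of all UMIs, without TMM factors) was at 2920, 3399 and 2972 CPM in WT and at 2197 CPM in Het 4. Het 4 is of the WT prefix. Het 1 to 3 were at 965, 1221 and 805 CPM and KO at 1037, 1201 and 1040 CPM. Without candidate doublets, DESeq2 called 1 (Ccl9) and 5 (Atf3, Tmsb10, Tubb3, Mapt and Hist1h4d) in the first pair, and leaving out 1 embryo gave 0 to 1 for KO against WT (Hist1h4d, without KO 2) and 0 to 2 for KO against Het (Lpl and Fth1, without KO 3). Genes whose change differed between cell classes were 13 and 6 without the filter. In the other cells, Het against WT gave 997 by DESeq2, 37 with the prefix, 186 with only those 2 groups and 80 (without WT 1) to 1836 (without Het 4) with 1 embryo left out. KO against WT gave 1528 with the prefix, and KO against Het 564 (without KO 2) to 1102 with 1 embryo left out.

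No label says that the replicate numbers pair the embryos. Correlations of same-numbered embryos were -0.05 to 0.64 in microglia, the highest between KO 3 and Het 3. With the replicate number as a block, Het against WT gave 0.254 for the macrophage share and 1877 genes in the other cells, and without candidate doublets the block called 2 (Csf1 and Fos), 3 (Atf3, Tubb3 and Mapt) and 1 (Lyz2) in the order above. The genes named beside these counts were chosen after their values were seen. With the prefix as a covariate, Rps29 in all microglia for KO against WT turned from -0.44 to 0.20 and Gm10076 from -0.81 to 0.059. Trem2 turned from 0.64 to -0.054 without candidate doublets or macrophage markers. The microglial sums rest on 18 to 46 cells per embryo.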
